A study of Glycine max with 44 samples.

Results

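The genes described here are soybean genes still known by a provisional locus symbol (LOC and a number) whose transcripts were higher with aluminium (Al) at 48 h in both genotypes of the study. A probe set of the Affymetrix soybean array was a member when it had a single annotated gene with such a symbol and when mean Al minus mean untreated at 48 h was at least 2 on the scale log2(intensity + 16) in PI 416937 and also in Young. LOC547581 and LOC778176 were left out by the rule. It found 126 of 6999 probe sets with a locus symbol, in 104 of 5024 genes, on an array with 37593 soybean probe sets. The members were thus chosen by their 48 h values, which are given below as a description with no test. Values of 2, 12 and 72 h were not used in the choice.

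The study compared transcripts of root tips with and without Al in 2 soybean genotypes, PI 416937, labelled Al-tolerant, and Young, labelled Al-sensitive. Plants stood in hydroponics in a growth chamber and received 10 µM Al or 0 µM Al, and the last centimetre of the tap root was sampled after 2, 12, 48 or 72 h. The 44 arrays make 16 groups of genotype, treatment and time, with 2 arrays a group at 2 h and 3 arrays a group at 12, 48 and 72 h. No label says that replicates came from separate cultures or how many tips were pooled, so a p-value here measures spread between these arrays only, which may be technical. A difference of 1 on the log2(intensity + 16) scale is a doubling for bright probe sets and more than that for dim ones.

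In acid soil, Al dissolves as the Al3+ ion, which enters the root apex and stops root elongation. Tolerant plants are known to keep Al out by releasing organic acids from the tip or to bind it inside cells, and Al also sets off oxidative stress and many genes of the general stress and defence response. NAC proteins are plant transcription factors of stress and senescence, glutathione S-transferases couple glutathione to reactive compounds, and cytochromes P450 oxidise a wide range of small molecules. Most locus genes have no such name in the tables used here, and no role is given to them.

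Probe sets for nematode and oomycete transcripts on the same array put the background at 4.41, and medians over tested probe sets differed by 0.138 at most between arrays. Root aquaporins were above background in 25 of 25 probe sets, beta-tubulins in 3 of 3 and expansins in 5 of 5, and the leaf gene CAB3 in 4 of 5, up to a mean of 7.96. Probe sets of nodulin symbols were above background in 4 of 4, up to 11.47, and no probe set carried a leghaemoglobin symbol. In such whole tips, fewer cells of a type and less RNA per cell cannot be told apart.

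An array labelled PI 416937, untreated, 72 h, replicate 1 stood apart from the rest of its group. The median over the 126 members was 9.08 on it, against 6.07 and 5.66 on the other arrays of its group. It lay above both of them in 126 of 126 members, and by at least 1 in 115, while over all tested probe sets the shares were 33.8% and 5.62%. It also lay above all 3 Al arrays of PI 416937 at 72 h in 126 of 126 members, and within the range of the 3 Al arrays of Young at 72 h in 74. Among 20 probe sets outside the members that separated the genotypes by at least 1 on the other 43 arrays, it was on the side of PI 416937 in 20, so its genotype fitted its label. Across tested probe sets outside the members, its correlation was 0.963 and 0.946 with its own group, 0.956 to 0.970 with the Al arrays of PI 416937, and 0.950 to 0.981 with the Al arrays of Young at 72 h. The log2 ratio of the 3′ to the 5′ actin control probe set was 1.39 on it and 0.760 and 1.05 on the other 2, and its part in the result was not tested. A smaller shift of the same kind was seen on the array labelled PI 416937, untreated, 12 h, replicate 3, which lay above the rest of its group in 92 members and by at least 1 in 50, the share by at least 1 over all tested probe sets being 1.80%. Counts and medians of the comparisons that use these arrays are given with and without them.

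**Figure D1:**
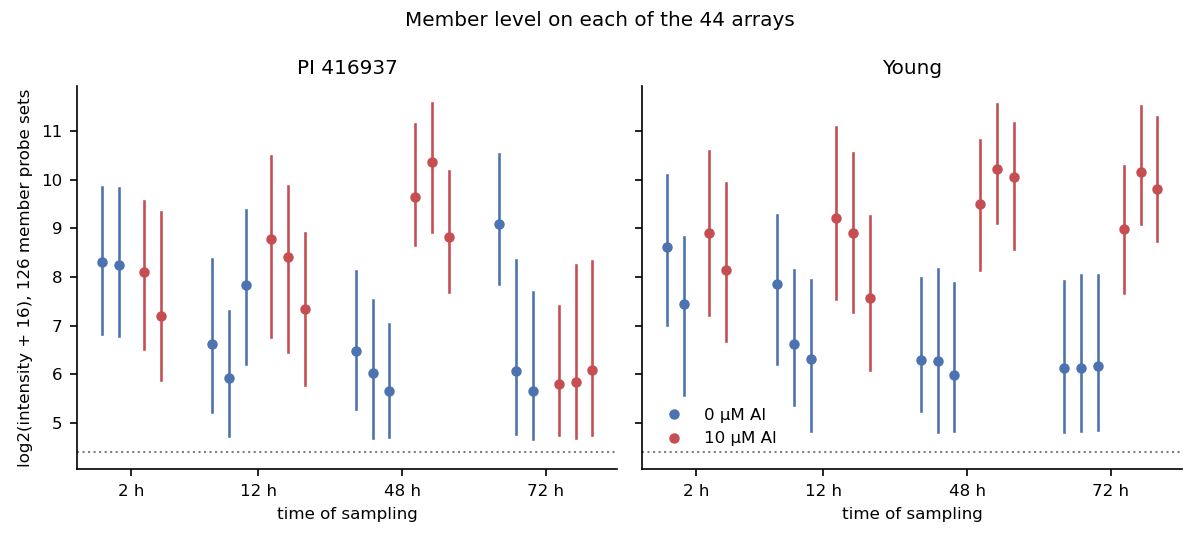
Level of the 126 members on each of the 44 arrays, as the median (point) and the quartiles (line) on the log2(intensity + 16) scale, with background as a dotted line. Points of 10 µM Al at 72 h lie at 5.81 to 6.10 in PI 416937 and at 8.98 to 10.16 in Young, and untreated replicate 1 of PI 416937 at 72 h lies at 9.08.

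At 48 h, where the members were chosen, the array medians with Al were 9.65, 10.37 and 8.83 in PI 416937 and 9.51, 10.21 and 10.06 in Young. Untreated arrays of the same time gave 6.48, 6.03 and 5.66 in PI 416937 and 6.31, 6.27 and 5.99 in Young. Differences ran from 2.02 to 5.81 (median 3.12) in PI 416937 and from 2.02 to 5.98 (median 3.15) in Young, and 64 of 126 members had the larger one in Young.

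The members with the largest 48 h difference, by the smaller of their values in the 2 genotypes, were LOC100527902 (chromosome 10), LOC100306181 (20), LOC100500298 (1), LOC100306414 (10), LOC100806530 (6), LOC100306444 (9), LOC100793054 (5), LOC100793962 (13), LOC100777541 (2) and LOC100527117 (4). LOC100527902 read 10.93, 12.30 and 10.49 with Al against 6.11, 5.57 and 5.69 without it in PI 416937, and 11.73, 12.02 and 12.04 against 6.43, 5.60 and 6.21 in Young. Its Al and untreated arrays were thus far apart in both genotypes, by 5.45 and 5.85. Just inside the threshold lay LOC100802887 (2.02 in PI 416937 and 2.42 in Young), LOC100306121 (2.31 and 2.02) and one of 3 probe sets of LOC100787917 (2.02 and 2.41). Just outside lay LOC100787726 (1.99 and 2.38), LOC100305963 (1.99 and 2.10) and LOC100777554 (2.38 and 1.98). Another 38 locus probe sets reached 2 in PI 416937 alone and 35 in Young alone.

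**Figure D2:**
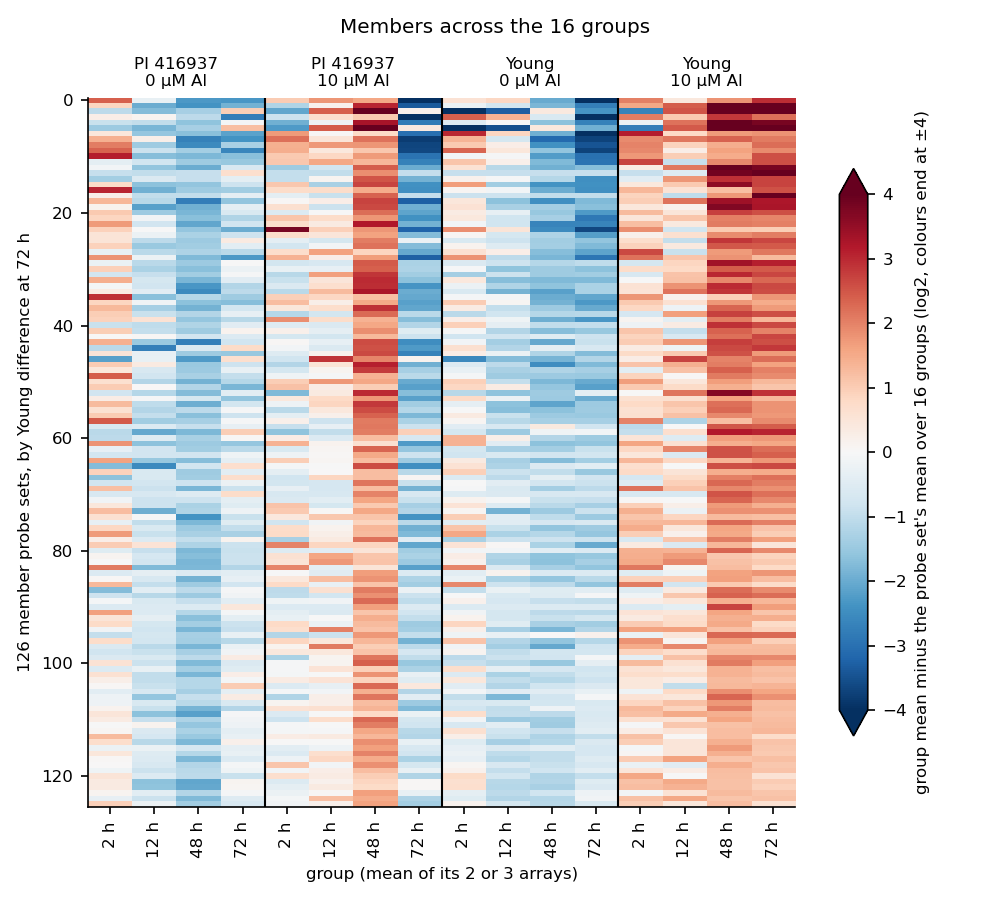
Group means of the 126 members (rows) in the 16 groups (columns), each minus the mean of that probe set over the 16 groups, with colours ending at ±4 on the log2 scale. Rows run from the largest Young difference at 72 h (7.16) to the smallest (1.20). The columns of 10 µM Al at 48 h are red in both genotypes, and that at 72 h is red in Young and blue or pale in PI 416937.

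In Young the members stayed high with Al at 72 h. Array medians were 8.98, 10.16 and 9.81 with Al and 6.14, 6.14 and 6.17 without it, so no array medians of the 2 groups overlapped. All 126 differences exceeded 1, from 1.20 to 7.16 (median 3.14, against -0.02 over all tested probe sets), and 100 reached 2, while 5.90% and 2.11% of all tested probe sets reached 1 and 2. Of the 126 members, 95 in 83 genes rose (limma, adjusted p under 0.05), none fell, and 3.00% of all tested probe sets were called higher. At an unadjusted p under 0.05 it was 123 members, against 19.2% of all tested. Every Al array lay above every untreated array in 125 members, a pattern seen in 16.6% of all tested probe sets. The count depended on the arrays kept: without Al replicate 2 it was 34 (0.762% of all tested called higher) and without Al replicate 3 it was 49 (1.33%). Without untreated replicate 1, 2 or 3 it was 55, 54 or 54 (1.54%, 1.46% and 1.40%).

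LOC100306414 (chromosome 10) had the smallest p of the members in Young at 72 h. It read 10.58, 12.21 and 11.44 with Al and 4.90, 4.90 and 4.94 without it. It rose by 6.50 ± 0.67 (SE from a spread shared by all 16 groups, 3 and 3 arrays compared, limma adjusted p = 8.85e-07). LOC100306595 (chromosome 2) read 12.87, 14.10 and 13.34 with Al and 8.19, 8.19 and 8.43 without it. All 3 Al arrays were again far above the untreated ones, and the difference was 5.17 ± 0.53 (limma adjusted p = 8.85e-07).

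LOC100500285 (chromosome 18) went from 5.11, 5.10 and 5.12 without Al to 8.54, 9.73 and 9.44 with it, a rise of 4.12 ± 0.55. LOC100500487 (chromosome 9) went from 4.62, 4.86 and 5.35, near background, to 9.71, 10.83 and 10.86, a rise of 5.52 ± 0.78. LOC100776330 (chromosome 10) was already bright without Al at 9.46, 9.48 and 9.43 and reached 13.32, 13.94 and 13.90. In each of these genes the untreated arrays lay within 1 of each other, and the lowest Al array in each case was replicate 1, which was below both other Al arrays in 116 of the 126 members.

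The 3 largest differences in Young at 72 h belonged to LOC100527097 (chromosome 17), LOC100306181 (chromosome 20) and LOC100809397 (chromosome 15). LOC100527097 was at background without Al (4.34, 4.38 and 4.34) and read 11.11, 12.58 and 10.85 with it, so its difference is at least 7.10 when background stands in for the untreated level. LOC100306181 went from 6.17, 6.15 and 6.31 to 12.14, 14.08 and 13.17, a rise of 6.92 ± 1.07 (limma adjusted p = 0.000344). LOC100809397 has 2 member probe sets, which rose by 6.66 ± 1.43 and 6.49 ± 1.39. At the other end were LOC100820571 (1.20 ± 0.59), LOC100817853 (1.30 ± 0.74) and LOC100526866 (1.32 ± 0.50), which did not pass the test. Across the 126 members, the Young differences at 48 and 72 h had a Pearson correlation of 0.73 and a Spearman correlation of 0.80, as a description across probe sets of the same arrays. The 72 h difference was the larger one in 42 members.

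**Figure D3:**
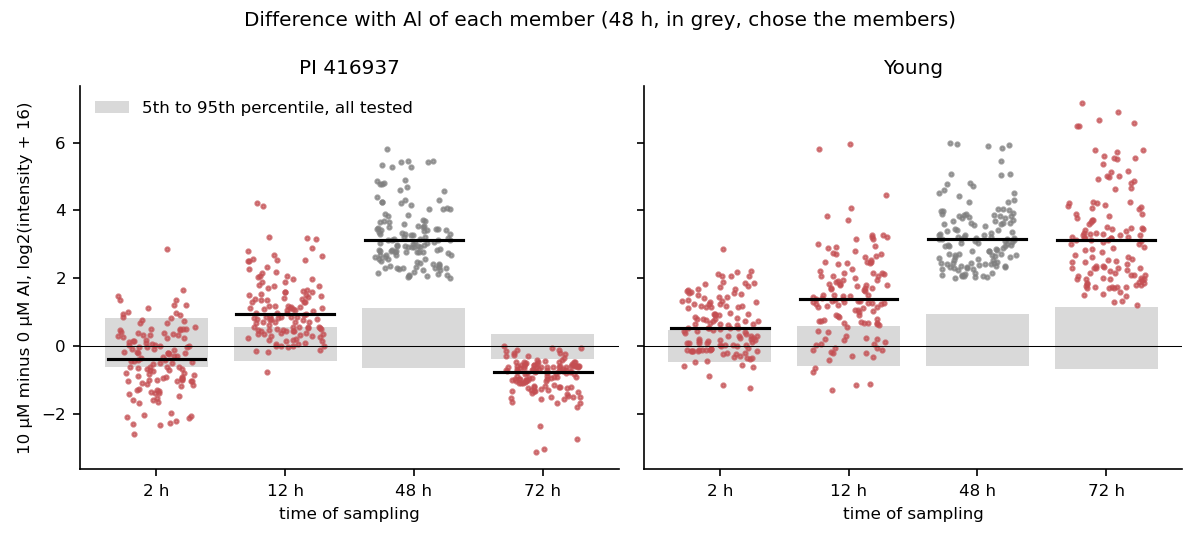
Difference of 10 µM minus 0 µM Al for each of the 126 members (points) at 4 times in both genotypes on the log2(intensity + 16) scale, with the member median as a black line and the 5th to 95th percentile of all tested probe sets as a grey block. Grey points at 48 h chose the members. At 72 h the median is 3.14 in Young and -0.77 in PI 416937.

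In PI 416937 the members were low with Al at 72 h. The Al arrays had medians of 5.81, 5.85 and 6.10, close to the 6.14 to 6.17 of untreated Young at that time. Each of the 126 members had a lower Al mean at 72 h than at 48 h, by 0.719 to 6.41 (median difference -3.01), while in Young the median difference between these times was -0.18. The 48 h arrays chose the members for being high, so these drops are a description.

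Al minus untreated at 72 h in PI 416937 turned on untreated replicate 1. With all arrays the difference was below 0 in 126 of 126 members, from -3.12 to -0.01 (median -0.77, against 0.01 over all tested). None was called by limma (7 at an unadjusted p under 0.05), while 0.0397% of all tested probe sets were called and 2.56% had an unadjusted p under 0.05. Without that array the median was 0.04, the range -2.59 to 1.09, and 75 members were above 0. With all arrays again, every Al array lay below every untreated array in 8 members, against 1.53% of all tested probe sets. Every Al array lay above in 0 members, against 3.59%. Without untreated replicate 2 limma called 2 members, both lower with Al, LOC100306414 among them, where 0.0255% of all tested probe sets were called lower.

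With untreated replicate 1 left out, 3 members lay below -1 and 1 lay above 1. LOC100812309 (chromosome 9) read 7.01, 9.15 and 8.67 with Al against 12.79, 10.01 and 11.17 without it on one probe set and 4.47, 7.60 and 7.03 against 10.53, 8.88 and 9.03 on the other. All its Al arrays were below its untreated arrays on both probe sets, and without replicate 1 the differences were -2.32 and -2.59 (-3.05 ± 1.05 and -3.12 ± 1.27 with it, limma adjusted p = 1 for both). LOC100306414 read 4.93, 4.59 and 4.94 with Al against 9.58, 5.53 and 7.59, a difference of -2.74 ± 0.67 (limma adjusted p = 0.248), or -1.74 without replicate 1. In the other direction, LOC100527824 (chromosome 2) read 9.09, 7.68 and 9.03 with Al against 10.92, 7.75 and 7.27, a difference of -0.05 with all arrays and 1.09 without replicate 1. The 2 probe sets of LOC100170751 closest to 0 gave -0.07 and -0.01, and 0.37 and 0.44 without it.

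**Figure D4:**
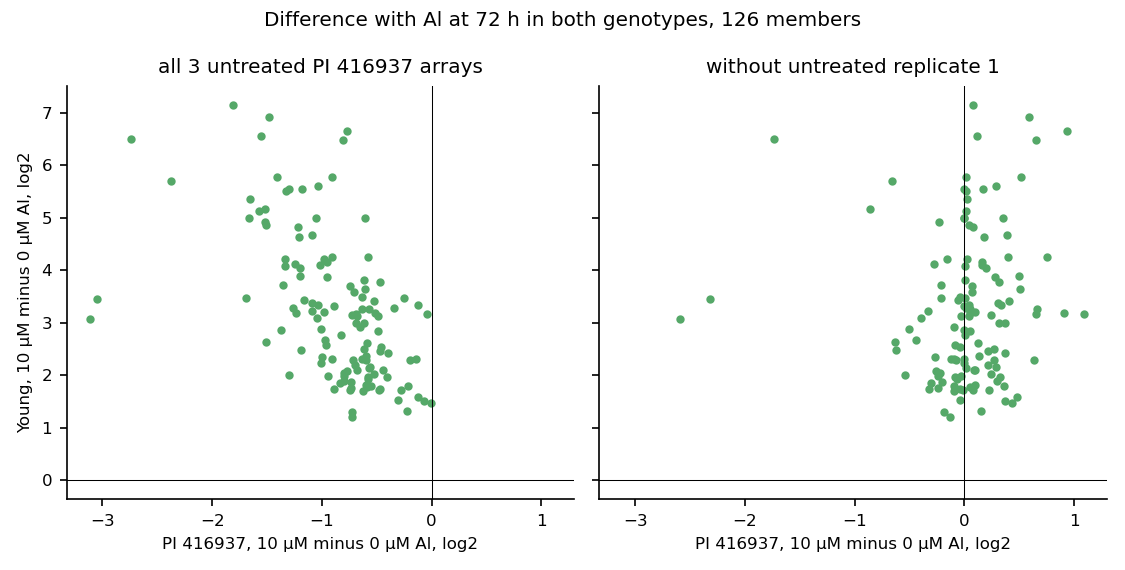
Difference with Al at 72 h in PI 416937 (horizontal) and in Young (vertical) for the 126 members, with all 3 untreated PI 416937 arrays (left) and without untreated replicate 1 (right). All points lie left of 0 on the left panel, with a median of -0.77, and around 0 on the right panel, with a median of 0.04, and all lie above 1 on the vertical axis.

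The genotypes were compared directly with Al at 72 h, a comparison that leaves out untreated arrays. PI 416937 lay below Young in all 126 members, by a median of 3.12 on the log2 scale (difference -3.12, range -7.56 to -0.86). Of these, 110 in 94 genes were lower in PI 416937 (limma, adjusted p under 0.05), where 6.12% of all tested probe sets were called lower. Every PI 416937 array was below every Young array in 124 members, against 14.9% of all tested probe sets. Without Young Al replicate 2 the count was 69, where 2.69% of all tested were called lower. This comparison shares its arrays with those within each genotype.

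The 5 members with the smallest p here were LOC100306414, LOC100306595, LOC100500285, LOC100500487 and LOC100306181. LOC100306414 read 4.93, 4.59 and 4.94 in PI 416937 against 10.58, 12.21 and 11.44 in Young, a difference of -6.59 ± 0.67 (limma adjusted p = 1.07e-07). LOC100306181 read 6.99, 4.63 and 5.09 against 12.14, 14.08 and 13.17, a difference of -7.56 ± 1.07 (limma adjusted p = 2.49e-05). LOC100306595 differed by -4.61 ± 0.53, LOC100500285 by -4.38 ± 0.55 and LOC100500487 by -5.78 ± 0.78, and in none of them did the arrays of the genotypes overlap.

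The difference between the genotypes in the response to Al at 72 h (Al minus untreated in PI 416937, minus the same in Young) had a median of -3.78 over the members, from -9.24 to -1.49. The response was lower in PI 416937 for 57 members in 53 genes (limma, adjusted p under 0.05) and higher for none, and 1.45% of all tested probe sets were called lower. Untreated replicate 1 of PI 416937 moves this value, and without it the median was -3.05 and 17 members were called, with 0.394% of all tested called lower. Without untreated replicate 3 of PI 416937 the count was 93 (2.41% of all tested called lower). Without Young Al replicate 2 or 3 it was 24 or 32 (0.482% and 0.703%), and without Young untreated replicate 1 or 2 it was 37 for both (0.830% and 0.757%). Fitted on the 4 compared groups alone it was 7 (0.269% of all tested called lower). LOC100306414 (-9.24 ± 0.95, limma adjusted p = 3.10e-06) and LOC100306595 (-6.69 ± 0.75, limma adjusted p = 7.15e-06) had the smallest p. They were followed by LOC100500285 (-5.37 ± 0.78), LOC100500487 (-6.85 ± 1.11) and LOC100527117 (-6.43 ± 1.11). Without untreated replicate 1 of PI 416937 these 5 differences were -8.23, -6.03, -4.40, -5.51 and -5.14, and all 5 still passed.

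LOC100527117 on chromosome 4 shows the pattern. In Young it read 10.23, 11.36 and 11.53 with Al and 6.13 on each of the 3 untreated arrays. In PI 416937 it read 5.90, 6.05 and 5.68 with Al, and 9.97, 5.89 and 6.33 without it. Only the first untreated array of PI 416937 came near the Al level of Young.

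**Figure D5:**
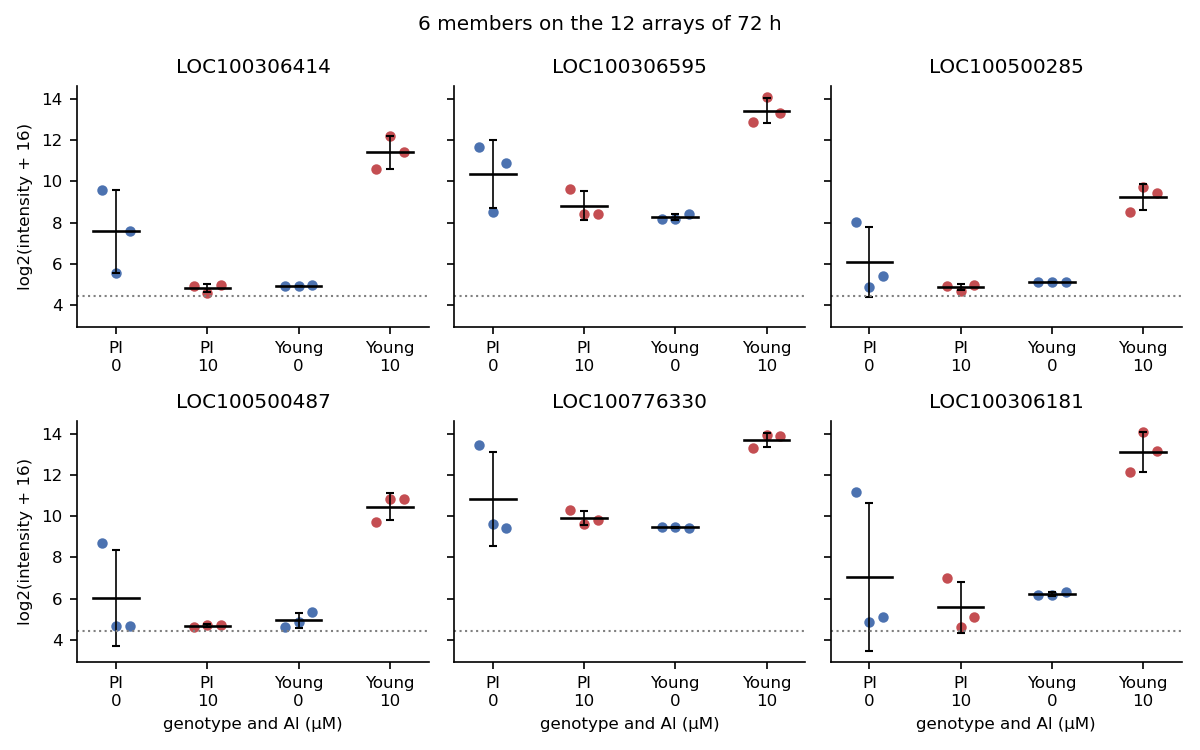
Levels of 6 members on the 12 arrays of 72 h, as points for single arrays in replicate order, with the mean and the SD (n = 3 arrays) as bars and background as a dotted line. For LOC100306414 the 3 Young arrays with 10 µM Al lie at 10.58 to 12.21 and the 3 PI 416937 arrays with Al at 4.59 to 4.94.

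At 12 h most differences were above 0 but few passed the test, with wide scatter between arrays. Array medians in Young were 9.21, 8.89 and 7.56 with Al and 7.86, 6.62 and 6.32 without it, and in PI 416937 8.77, 8.40 and 7.34 with Al and 6.62, 5.92 and 7.84 without it. The Al and untreated medians overlapped in both genotypes. The difference was above 0 in 111 of 126 members in Young (median 1.38) and in 119 in PI 416937 (median 0.95), and it reached 1 in 83 and 60 members, against 2.01% and 1.64% of all tested probe sets. In 45 members it reached 1 in both genotypes, in 38 in Young alone, in 15 in PI 416937 alone and in 28 in neither. Without untreated replicate 3 of PI 416937 the difference in that genotype was above 0 in 119 members (median 1.43) and reached 1 in 81, against 3.19% of all tested probe sets. The number at 1 or more in both genotypes was then 62, with 21 in Young alone, 19 in PI 416937 alone and 24 in neither.

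Only 4 members in 3 genes passed the test in Young at 12 h, all higher, where 0.0708% of all tested probe sets were called higher (69 members at an unadjusted p under 0.05, against 8.09% of all tested). They were LOC547561 (chromosome 16), LOC100793962 (chromosome 13) and 2 probe sets of LOC100779306 (chromosome 9). LOC547561 read 8.98, 9.23 and 5.84 with Al and 4.74, 4.72 and 4.73 without it, a rise of 3.29 ± 0.61 (limma adjusted p = 0.0174). LOC100779306 read 14.14, 13.51 and 13.47 with Al and 11.31, 10.10 and 10.03 without it on one probe set, a rise of 3.23 ± 0.63 (limma adjusted p = 0.0339). Its arrays did not overlap, whereas for LOC547561 the third Al array stood well below the others.

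Same-numbered Young arrays at 12 h deviated together (correlations of residuals 0.24 to 0.29) and were taken as pairs, though no label states a pairing. With the replicate block 0 members were called there. The block also estimates more terms from the same arrays, and the cause of the lost calls was not tested. Al replicate 3 of Young was below both other Al arrays in 93 of 126 members, and without it 41 members were called (1.85% of all tested called higher). The count was 0 without Al replicate 1, Al replicate 2 or untreated replicate 3, and 2 without untreated replicate 1. All 3 Al arrays lay above all 3 untreated arrays in 48 members, against 3.94% of all tested probe sets. In PI 416937 at 12 h 0 members were called by limma (37 at an unadjusted p under 0.05, against 4.49% of all tested), 0.00283% of all tested probe sets being called in either direction. Without untreated replicate 3 it was 9 members, with 0.119% of all tested called higher.

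The largest 12 h differences in both genotypes belonged to LOC100809397 and LOC100785626. On its probe set with the largest difference, LOC100809397 read 14.10, 11.65 and 11.65 with Al and 6.85, 8.20 and 4.46 without it in Young, and 12.58, 12.80 and 11.88 against 5.20, 6.95 and 12.41 in PI 416937. The high untreated array of PI 416937 is replicate 3. LOC100785626 (chromosome 19) read 10.70, 10.61 and 11.33 against 6.20, 7.51 and 5.55 in Young and 11.21, 10.89 and 11.10 against 6.19, 6.01 and 11.37 in PI 416937. With all arrays neither gene passed the test (limma adjusted p = 0.0735 and 0.0546 in Young, and 1 in PI 416937). Without untreated replicate 3, both passed in PI 416937, LOC100785626 with a difference of 4.97 (limma adjusted p = 0.00186) and LOC100809397 with 6.34 and 6.14 on its 2 probe sets (limma adjusted p = 0.0252 and 0.0495). At the low end, LOC100799842 (-1.31 ± 0.94) and the 2 probe sets of LOC100306165 (-1.15 and -1.12) had negative differences in Young, and LOC100499938 (-0.77), LOC100811980 (-0.17) and LOC100306678 (-0.14) in PI 416937 (-1.20, -0.16 and -0.07 without untreated replicate 3).

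At 2 h, with 2 arrays a group, limma called 0 members in either genotype, where 0.105% of all tested probe sets were called in Young and 1.01% in PI 416937. The median difference was 0.53 in Young, with 95 members above 0, 40 at 1 or more (1.18% of all tested) and 7 at an unadjusted p under 0.05 (3.23%). In PI 416937 the median was -0.37, with 44 members above 0 and 6 at an unadjusted p under 0.05 (10.2% of all tested). Both Al arrays of PI 416937 lay below both untreated arrays in 46 members and above them in 14, against 18.6% and 15.4% of all tested probe sets. The extremes were LOC100785626 (2.87 ± 1.17), LOC100801665 (2.22 ± 0.99) and LOC100500381 (2.20 ± 0.72) above and LOC100795901, LOC100306632 and LOC100500561 (-1.25, -1.15 and -0.87) below in Young. In PI 416937 they were LOC100799842 (2.87 ± 1.15), LOC100812309 (1.64) and LOC100306165 (1.47) above and LOC100500344 (-2.60 ± 0.74, limma adjusted p = 0.0877), LOC100526852 (-2.32) and LOC100780605 (-2.30) below. The response did not differ between the genotypes beyond the threshold at 2 h or at 12 h: 0 members were called by limma at either time (11 and 7 at an unadjusted p under 0.05, against 6.90% and 3.48% of all tested). Of all tested probe sets 0.357% and 0% were called, and the median differences in response were -1.01 and -0.56. Without untreated 12 h replicate 3 of PI 416937 the 12 h median was 0.11, on the other side of 0, and 0 members were called.

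There were 5 members with differences between -0.5 and 0.5 at both 2 h and 12 h in both genotypes: LOC100500233, LOC100500542, LOC548031, LOC100527213 and 1 probe set of LOC100784455. The bounds were set after the data were seen. Some of these levels were near the background of 4.41, where a small difference says little. In Young, LOC100500542 averaged 4.36 with Al and 4.49 without it at 2 h, and 4.36 and 4.42 at 12 h. LOC100527213 averaged 4.59 with Al and 4.41 without it in Young at 12 h. LOC100500233 (chromosome 8) at 72 h read 8.61, 9.42 and 11.66 with Al in Young against 4.53, 4.54 and 4.54 without it, a rise of 5.36 ± 1.08 (limma adjusted p = 0.00374). In PI 416937 it read 4.49, 4.49 and 4.48 with Al and 9.49, 4.40 and 4.52 without it, so all but the first untreated array were close to background.

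Untreated roots also differed between times. Member medians were 8.61 and 7.45 at 2 h in Young and 8.31 and 8.25 in PI 416937, against 6.14 to 6.17 at 72 h in Young and 9.08, 6.07 and 5.66 in PI 416937. In Young the untreated 2 h level exceeded that at 72 h in 32 members (limma, adjusted p under 0.05) and fell short of it in 0, where 10.4% and 13.6% of all tested probe sets were called higher and lower, and the median difference was 1.24. In PI 416937 it was 18 members higher and 1 lower (8.12% and 8.51% of all tested), with a median of 0.79. The 1 lower member was LOC100527112 on chromosome 7 (-2.35 ± 0.78, limma adjusted p = 0.0369), named after its value was seen. Without untreated 72 h replicate 1 of PI 416937 the median was 1.64, 44 members were higher (6.15% of all tested) and 0 were lower. Without its 72 h replicate 2 it was 7 higher (4.52%), and without its 2 h replicate 2 it was 0 (1.71%). In Young the count was 8 without 2 h replicate 1 (3.86%).

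LOC100527230 (chromosome 17) had the smallest p of this comparison in both genotypes. Untreated it read 13.84 and 11.82 at 2 h and 7.79, 8.38 and 8.30 at 72 h in Young, a difference of 4.67 ± 0.81 (limma adjusted p = 0.000166). In PI 416937 it read 11.93 and 13.73 against 10.96, 7.41 and 7.80, a difference of 4.11 ± 0.81 (limma adjusted p = 0.00138). In both genotypes its 2 h arrays lay above its 72 h arrays. LOC100790279 (chromosome 6) was also among the first 5 in both, at 6.04 ± 1.13 in Young and 4.96 ± 1.13 in PI 416937. The others were LOC100808190, LOC100815629 and LOC100799842 in Young (3.51, 6.99 and 5.50) and LOC100500344, LOC100500384 and LOC547578 in PI 416937 (3.38, 3.00 and 3.24). Without untreated 72 h replicate 1 the PI 416937 differences were 5.22 for LOC100527230, 6.28 for LOC100790279, and 3.84, 3.43 and 3.97 for the other three, all still past the threshold.

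Untreated PI 416937 and Young did not differ beyond the threshold in any member as the mean of 2, 12 and 72 h. No member was called by limma (9 at an unadjusted p under 0.05, against 13.8% of all tested), where 3.55% of all tested probe sets were called, and the median difference, PI 416937 minus Young, was 0.29. That mean includes both untreated arrays of PI 416937 with high member levels, and without both the median was -0.15, on the other side of 0, with 0 members called.

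Another name was given in the reference for 7 of the 104 genes. NAC transcription factors were 3 of them. LOC100816770 (NAC55, chromosome 11) read 7.22, 7.95 and 7.94 with Al and 5.38, 6.02 and 5.68 without it in Young at 72 h, a rise of 2.01 ± 0.55 (limma adjusted p = 0.0338). In PI 416937 it read 4.83, 4.68 and 4.91 with Al and 7.62, 5.49 and 5.21 without it, and with Al the level was lower than in Young by 2.90 on the log2 scale (difference -2.90 ± 0.55, limma adjusted p = 0.000768). Only this NAC gene passed the test in Young at 72 h.

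LOC100814504 (NAC69, chromosome 4) gave 1.98 ± 0.64 and 1.73 ± 0.69 on its 2 probe sets in Young at 72 h (limma adjusted p = 0.0775 and 0.156). LOC100170751 (NAC32, chromosome 5) gave 1.48 to 1.79 on 3 probe sets (limma adjusted p = 0.275, 0.122 and 0.244). With Al at 72 h NAC32 read 9.80, 9.65 and 10.62 in PI 416937 and 10.94, 11.53 and 11.86 in Young on its probe set with the largest Young difference. The arrays did not overlap, but the difference of -1.42 ± 0.66 did not pass (limma adjusted p = 0.166).

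The tau glutathione S-transferases LOC548031 (GSTU16, chromosome 5) and LOC547578 (GSTU26, chromosome 7) both rose in Young at 72 h. GSTU16 read 6.16, 8.48 and 7.31 with Al and 4.44, 4.49 and 4.48 without it, a rise of 2.84 ± 0.64 (limma adjusted p = 0.00938). GSTU26 read 10.73, 12.24 and 11.55 with Al and 8.91, 9.24 and 9.32 without it, a rise of 2.35 ± 0.65 (limma adjusted p = 0.0363). In PI 416937 with Al they read 4.45, 4.60 and 4.50 for GSTU16 and 7.48, 8.97 and 9.22 for GSTU26, below Young on every array. Untreated, GSTU26 read 12.77 and 12.84 at 2 h in PI 416937 against 11.03, 9.33 and 8.33 at 72 h.

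The cytochrome P450 gene LOC100780605 (CYP71D8, chromosome 11) has 3 member probe sets. On the one with the largest Young difference it read 9.80, 10.84 and 9.52 with Al and 4.50, 4.49 and 4.49 without it in Young at 72 h, a rise of 5.56 ± 1.33 (limma adjusted p = 0.014), and 4.59, 4.49 and 4.50 with Al in PI 416937. Untreated it read 10.65 and 10.60 at 2 h in PI 416937 and 9.27 and 5.46 in Young, so both PI 416937 arrays and 1 of 2 Young arrays were well above background. LOC100815291, also named chib1-a (chromosome 16), was at background without Al at 72 h in Young (4.34, 4.38 and 4.36) and read 6.53, 8.64 and 7.85 with Al, a difference of at least 3.26.

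Several probe sets stood for 1 gene in 16 of the 104 genes. All of them were called higher in Young at 72 h in 8 of the 16, some in 4 and none in 4. LOC100787917 was called on 3 of 3 probe sets (1.54 to 2.57), LOC100780605 on 2 of 3 (3.82 to 5.56) and LOC100779306 on 2 of 4 (2.05 to 2.42). Counting otherwise, 16 of the 104 genes had 27 further probe sets that missed the rule, 25 of them tested. Of these 25, 4 were called higher in Young at 72 h, among them a probe set of LOC547527 with 1.98 and 3.21 at 48 h and 7.38 at 72 h. LOC100793054, named above among the largest 48 h differences, also had further probe sets that missed the rule. On 1 of them, at a mean level of 8.28, the 48 h differences were 0.14 in PI 416937 and 0.05 in Young. Its Young difference at 72 h was 1.14 and did not pass the test. The median Young difference of the 25 at 72 h was 0.04. The files do not say which transcripts each reaches. Of the 126 members, 92 had names ending in _at, 28 in _s_at, 3 in _x_at and 3 in _a_at, and the suffixes s and x mark probe sets that can detect several similar transcripts.

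Member genes lay on all 20 chromosomes, from 8 genes on chromosome 6 to 2 each on chromosomes 14, 19 and 20, in the RefSeq annotation of Glycine_max_v4.0. There were 5 pairs of members with no annotated gene between them. LOC100527824 and LOC100306595 are neighbours on chromosome 2 and rose in Young at 72 h by 3.18 ± 0.71 and 5.17 ± 0.53, and LOC100306181 and LOC100499938 on chromosome 20 rose by 6.92 ± 1.07 and 3.48 ± 0.78. On chromosome 8, LOC100305352 rose by 3.14 ± 0.61 beside LOC100306165 (4.21 and 5.55 on 2 probe sets), and LOC100500233 lies beside LOC100500542, the only long non-coding RNA among the members. LOC100500542 read 5.36, 8.86 and 7.47 with Al in Young and 4.37, 4.37 and 4.39 without it, a difference of at least 2.82 that did not pass (limma adjusted p = 0.0917). On chromosome 13, LOC100801551 and LOC100500336 rose by 1.99 ± 0.56 and 2.30 ± 0.62. LOC100101844 and LOC100527307 on chromosome 7 have 3 genes between them, one of which carries the symbol PR-10, the name of a family of pathogenesis-related proteins.

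Named stress genes outside the members are given for comparison, from lists made by symbol alone. At 72 h in Young, 13 of 103 probe sets of WRKY transcription factors, 8 of 41 of glutathione S-transferases, 6 of 52 of isoflavonoid and phenylpropanoid synthesis and 1 of 5 of pathogenesis-related genes rose, and none fell. With Al at 72 h, 28, 19, 9 and 2 of them were lower in PI 416937 than in Young, and 1 WRKY probe set was higher. No probe set of these lists was called in PI 416937 at 72 h. Over all tested probe sets 3.00% were called higher in Young at 72 h and 247 of 35289 lower. With Al at 72 h 6.12% were called lower in PI 416937 and 1868 of 35289 higher, and 0.0397% were called in PI 416937 at 72 h. Median Young differences at 72 h were 0.29, 0.58, 0.20 and 1.54 in these lists, against 3.14 in the members, which had been chosen for a large difference with Al.

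The locus probe sets that reached 2 at 48 h in only 1 genotype were set beside the members. Of the 35 that did so in Young alone, 27 were called higher in Young at 72 h (median 2.51) and 29 were lower with Al at 72 h in PI 416937 than in Young. Of the 38 that did so in PI 416937 alone, 8 were called higher in Young at 72 h (median 1.35) and with Al 13 were lower and 1 was higher in PI 416937. In PI 416937 at 72 h 0 of either set were called, as for the members, and the differences between these sets were not tested. The shares over all tested probe sets were 3.00% called higher in Young at 72 h and 0.0397% called in PI 416937 at 72 h. With Al at 72 h they were 6.12% called lower in PI 416937, and 1868 of 35289 were called higher.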

How the data were processed

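Root RNA of 44 samples was hybridised to Affymetrix soybean arrays. The deposited values are linear intensities, which the authors had made comparable between arrays. How they were summarised and normalised is not given in the sources used here. Per the labels' protocols, total RNA was reverse transcribed with an oligo dT-T7 primer and labelled with biotin by in vitro transcription, which favours 3′ ends. No depth applies to arrays, and their number limits the precision.

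Intensities were transformed as log2(intensity + 16). Background was set at 4.41, below which 95% of 23350 probe sets of other organisms had their mean. A soybean probe set was tested when at least 1 group mean exceeded it, which kept 35289 of 37593 and all 126 members, each of which also passed on its mean over all arrays. The 227 control probe sets were left out. Names came from GEO's platform annotation (8677 soybean probe sets with 1 symbol, 370 with several, 28546 with none), and 126 of 126 members matched the RefSeq table with an unchanged symbol.

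A mean for each of 16 groups was estimated by limma 3.58.1 (R 4.3.3; lmFit, eBayes with a trend, 28 residual and 1.94 prior degrees of freedom), with Benjamini-Hochberg adjustment over all tested probe sets within each of 13 comparisons and a threshold of 0.05. Values after ± are standard errors unless SD is given. In this fit they and the p-values use a spread per probe set estimated over all 16 groups, not that of the compared groups alone. The median member SD was 0.126 in untreated Young at 72 h and 1.44 in untreated PI 416937 at 72 h. The fit was tested on simulated data. Where a group mean lay at or below background, a difference is given as "at least", with background in its place.

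Members and lists were chosen with earlier results of these data known. Named are the 10 members with the largest smaller 48 h difference, those nearest the threshold, at 2, 12 and 72 h the 5 called with the smallest p and the 3 highest and 3 lowest, in other comparisons the 5 called with the smallest p, genes with another name, and examples of genes with several probe sets. Neighbouring genes and the members flat at early times were named after their values were seen. Descriptions of the genes' products were not used here, so the functional grouping planned by description was replaced by other names, and promoter motifs were not searched.

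Same-numbered Al and untreated arrays deviated together in Young at 12 h (correlations of residuals 0.24 to 0.29) and at 48 h (0.38 to 0.48), where the numbers are taken as pairs. In Young at 2 h, 2 arrays a group give the same value, 0.35, for each replicate number, so a pairing could not be judged there. In the other cells same-numbered arrays did not deviate together throughout. The replicate block nevertheless paired same-numbered arrays in every genotype and time. No 2 arrays were identical, the highest correlation being 0.9982. Alternatives were pseudocounts of 1 and 64, no filter, a filter on the mean over all arrays, quantile normalisation, no trend, a fit on the compared groups alone, the replicate block and leaving out each array.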

Additional observations from a re-analysis of the deposited data

Results flagged for a closer look

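The response to Al at 72 h differed between the genotypes by a test of the difference itself in 57 members, all with the lower response in PI 416937. Of all tested probe sets 1.45% were called lower. By smallest p they were led by LOC100306414 (-9.24), LOC100306595 (-6.69), LOC100500285 (-5.37), LOC100500487 (-6.85) and LOC100527117 (-6.43), as PI 416937 minus Young in Al minus untreated on the log2 scale. Untreated replicate 1 of PI 416937 at 72 h enters each of these values. Without that array 17 members were called, with 0.394% of all tested called lower. A fit on the compared groups alone also called far fewer members, as given above. Groups held at most 3 arrays, so single arrays were not tested for standing apart.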

How the results depend on the processing

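The number of members called in each comparison at 2, 12 and 72 h was recomputed under each alternative. It stayed within 1.5 times the reported number under quantile normalisation and the filter on the mean over all arrays. With a pseudocount of 1 the untreated genotypes differed in 2 members, and with a pseudocount of 64 the 2 h difference in PI 416937 was called in 1. In Young at 12 h the 4 calls became 2 with no filter, 2 without the variance trend and 0 on the compared groups alone. On the compared groups alone the response differed at 72 h in 7 members (0.269% of all tested called lower). Untreated 2 h then differed from 72 h in 0 members in PI 416937 and 56 in Young. In the main fit 16.6% and 24.1% of all tested probe sets were called in these 2 comparisons, in either direction. Fewer arrays estimate the spread in the fits on the compared groups alone, and the cause of the changed counts was not tested. With the replicate block the count was 0 in Young at 12 h and 1 in PI 416937 at 2 h, and it moved no other count by over 1.5 times. The PI 416937 2 h numbers deviated against each other (-0.18), and with crossed pairs 1 member was called there and 1 in the response at 2 h. Without both untreated PI 416937 arrays of high member level, chosen after seeing the data, the counts were 12 at 12 h, 18 for the response at 72 h and 48 for untreated 2 h against 72 h. The share over all tested probe sets is not given for this setting, so these counts cannot be set against other probe sets. Both arrays were left out for their high member levels, and no conclusion is drawn from the counts without them. With only the array of the same time left out, the counts were 9, 17 and 44. In those fits 0.119%, 0.394% and 6.15% of all tested were called in the same direction. For the other alternatives of this paragraph the share is not given, so their counts cannot be set against other probe sets.

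Leaving out each array in turn gave 0 to 9 calls in PI 416937 at 12 h, 0 to 2 at 72 h, 0 to 41 in Young at 12 h and 34 to 102 at 72 h. For the response it gave 0 to 2 at 2 h, 0 to 1 at 12 h and 17 to 93 at 72 h. It gave 69 to 113 for PI 416937 against Young with Al at 72 h, 0 to 2 for the untreated genotypes, and 0 to 44 and 8 to 36 for untreated 2 h against 72 h in PI 416937 and Young. The share over all tested probe sets also moved between these fits. It was 1.85% called higher at the 41 calls of Young at 12 h and 0.762% at the 34 of 72 h. For the response at 72 h it was 0.394% called lower at 17 and 2.41% at 93. At the 69 with Al at 72 h it was 2.69%. Differences that changed sign were uncalled ones near 0 or with wide scatter. In PI 416937 LOC100306165 ranged from -0.18 to 3.11 and LOC100812309 from -0.92 to 4.21 at 2 h. At 12 h LOC100499938 ranged from -1.20 to 0.11, LOC100811980 from -0.46 to 0.11 and LOC100306678 from -0.58 to 0.24. At 72 h the 2 probe sets of LOC100170751 ranged from -0.57 to 0.37 and from -0.54 to 0.44, and LOC100527824 from -0.73 to 1.09, and without both arrays of high member level they gave 0.37, 0.44 and 1.09. The causes of these changes were not tested. The number of arrays limits the precision, and 6 members near background without Al have only a lower bound in Young at 72 h.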
